A study of Mus musculus with 22 samples.

Results

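Motile cilia are the beating hairs of ciliated airway cells, and the genes of their moving parts were followed in mouse lung RNA after benzene inhalation. The genes were taken by symbol from the lung table: Foxj1 and every gene whose symbol is Dnah, Dnai, Dnaic, Dnaaf, Cfap, Tekt or Rsph followed by a digit. This gave 60 of 15971 genes listed for lung. They comprise Foxj1, 5 outer arm and 9 inner arm dynein heavy chain genes, Dnah14 (a heavy chain gene placed in neither arm here), the antisense transcript Dnah2os, 2 intermediate chain genes, 4 dynein assembly factor genes, 7 radial spoke genes, 4 tektin genes and 26 Cfap genes. The annotation GENCODE M21 has 67 gene names that match the rule. Of these, Cfap97d1, Rsph6a and Tekt3 are not listed in the lung table, and Cfap298, Cfap299, Cfap300 and Cfap97d2 are listed there under other symbols and were not counted as members.

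The animals were male C57BL/6J mice, 14 weeks old and fed normal chow. The lung air group (n = 6) breathed air cleaned by carbon and HEPA filters, and the lung benzene group (n = 6) was exposed to 50 ppm benzene, 6 hours daily on 5 days of each of 6 weeks. Benzene is a volatile solvent. RNA selected by its poly-A tail was sequenced from lung tissue, and the liver of the same study (5 air and 5 benzene libraries) was used only to see which of these genes are also read in a tissue without airways.

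The core of a motile cilium is the axoneme, a ring of doublet microtubules around a central pair. Dynein motors project from each doublet as an outer and an inner row of arms, whose heavy chains hydrolyse ATP and slide the doublets past each other, and radial spokes pass signals between the central pair and the arms. Dynein arms are put together in the cytoplasm with the help of assembly factors (Dnaaf) before they enter the cilium. Tektins and several Cfap proteins (cilia and flagella associated proteins) lie inside the doublets and hold them together, while other Cfap proteins belong to the central pair, the spokes or the tethers of the inner arms. Foxj1 is the forkhead transcription factor that switches this programme on, and RFX factors bind the X-box motif in the promoters of many of these genes. In the lung, ciliated cells line the conducting airways next to club cells and use their cilia to move mucus.

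Promoters of 3 genes that were lower after benzene are shown because they hold matches to the X-box. The sequences run from 250 bases before to 50 bases after a RefSeq transcription start, on the gene's strand, build GRCm38.p6. Capitals mark matches to 1 arm of the X-box (GTTGCC, read as GGCAAC on the other strand) or to its spaced pair of arms (GTNNCC, then any 2 bases, then GGNAAC), both searched on both strands. The windows are chr11:72361833-72362132 for Tekt1 (minus strand), chr17:25471340-25471639 for Tekt4 (plus strand) and chr11:114727169-114727468 for Dnaic2 (plus strand). Another Tekt1 window, chr11:72361247-72361546, holds no match and is not shown.
Tekt1: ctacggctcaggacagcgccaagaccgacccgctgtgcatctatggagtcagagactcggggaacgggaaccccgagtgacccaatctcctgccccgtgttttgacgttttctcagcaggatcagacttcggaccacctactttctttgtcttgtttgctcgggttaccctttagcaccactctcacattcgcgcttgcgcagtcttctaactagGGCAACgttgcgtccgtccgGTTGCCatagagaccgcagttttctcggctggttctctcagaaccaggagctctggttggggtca
Tekt4: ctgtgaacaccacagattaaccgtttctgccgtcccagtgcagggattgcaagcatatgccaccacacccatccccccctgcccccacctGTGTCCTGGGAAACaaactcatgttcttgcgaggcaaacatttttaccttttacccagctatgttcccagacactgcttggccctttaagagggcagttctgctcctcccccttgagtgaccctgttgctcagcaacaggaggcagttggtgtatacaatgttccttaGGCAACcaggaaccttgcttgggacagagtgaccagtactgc
Dnaic2: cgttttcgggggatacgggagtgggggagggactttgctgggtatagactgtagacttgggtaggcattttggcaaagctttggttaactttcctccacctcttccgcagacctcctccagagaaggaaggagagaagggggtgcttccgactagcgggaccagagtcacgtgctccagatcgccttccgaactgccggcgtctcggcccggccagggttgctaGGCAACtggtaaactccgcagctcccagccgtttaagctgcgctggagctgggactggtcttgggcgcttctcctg
Counted from the start site as 0, the Tekt1 single arms lie at -35 to -30 and -15 to -10, and the Dnaic2 arm at -26 to -21. In Tekt4 the single arm lies at 8 to 13 and the spaced pair at -160 to -147. A spaced pair that is spelled with GTTGCC counts for both motifs.

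Of the 60 genes, 47 had a promoter in the RefSeq table, with 54 windows in all. Not matched were Cfap157, Cfap53, Cfap54, Cfap65, Cfap73, Cfap97, Dnaaf1, Dnah2os, Dnah3, Foxj1, Rsph1, Rsph10b and Rsph4a. The single arm was present in 20 windows of the cilia genes, or 37.0%, and in 12.5% of all 32817 promoter windows of the same length. The spaced pair was present in 3 windows (Cfap206, Dnaaf5 and Tekt4), or 5.56%, against 1.29% of all windows. A forkhead motif (TGTTTAC, both strands) was present in 3 windows (Cfap20, Cfap43 and Dnah17), or 5.56%, against 3.65% of all windows. Counted by gene, the single arm was present in 3 of the 8 matched genes that fell after benzene without air replicate 5 (37.5%). It was present in 15 of the other 39 (38.5%), a nearly equal share. Counted by window, the shares were 3 of 11 (27.3%) and 17 of 43 (39.5%), and the first set is small. These are matches of letters and not measured binding.

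Levels are normalized CPM as deposited, that is reads scaled by library size and by 1 further factor per library (edgeR's RLE factor). Recovered reads per library ran from 8300876 to 11922169 in air lungs and from 8400760 to 10021189 in benzene lungs, of which 6556 to 13635 reads per library belonged to the 60 genes. Air replicate 5 stood apart: it had 894 genes without a read (17 to 61 in the other air lungs), and its counts differed from those of other air lungs by a chi-square of 101.8 to 126.9 per gene, where other pairs within a group gave 2.14 to 17.9 and sampling noise alone gives 1. Counts and changes are therefore given both without air replicate 5 and with all 12 libraries. Benzene replicates 2 and 4 were close to each other, at a chi-square of 3.03 per gene. They differed from the other benzene lungs by 9.19 to 17.9, where the others differed among themselves by 2.14 to 8.01. The members that passed or no longer passed without both are given further on. The labels number the samples without saying that each is a separate animal, so p-values measure the spread between these samples, which may be technical. In bulk lung RNA, fewer ciliated cells and less RNA per ciliated cell cannot be told apart.

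All 60 genes reached 1 CPM in at least 6 libraries and were tested. Per kilobase of exon, over the 12 libraries, the highest level was that of Foxj1 at 40.3 CPM per kilobase. It was followed by Rsph1 (33.9), Cfap126 (24.4) and Tekt1 (17.6), whose products are a spoke head protein, a protein that positions basal bodies and a filament inside the doublets. The dynein heavy chain genes were the lowest group per kilobase, from 0.152 for Dnah8 to 2.85 for Dnah5. Dnah8 and the outer arm gene Dnah17 are best known from the sperm tail, and Dnah5, Dnah9 and Dnah11 form the outer arms of airway cilia.

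**Figure D1:**
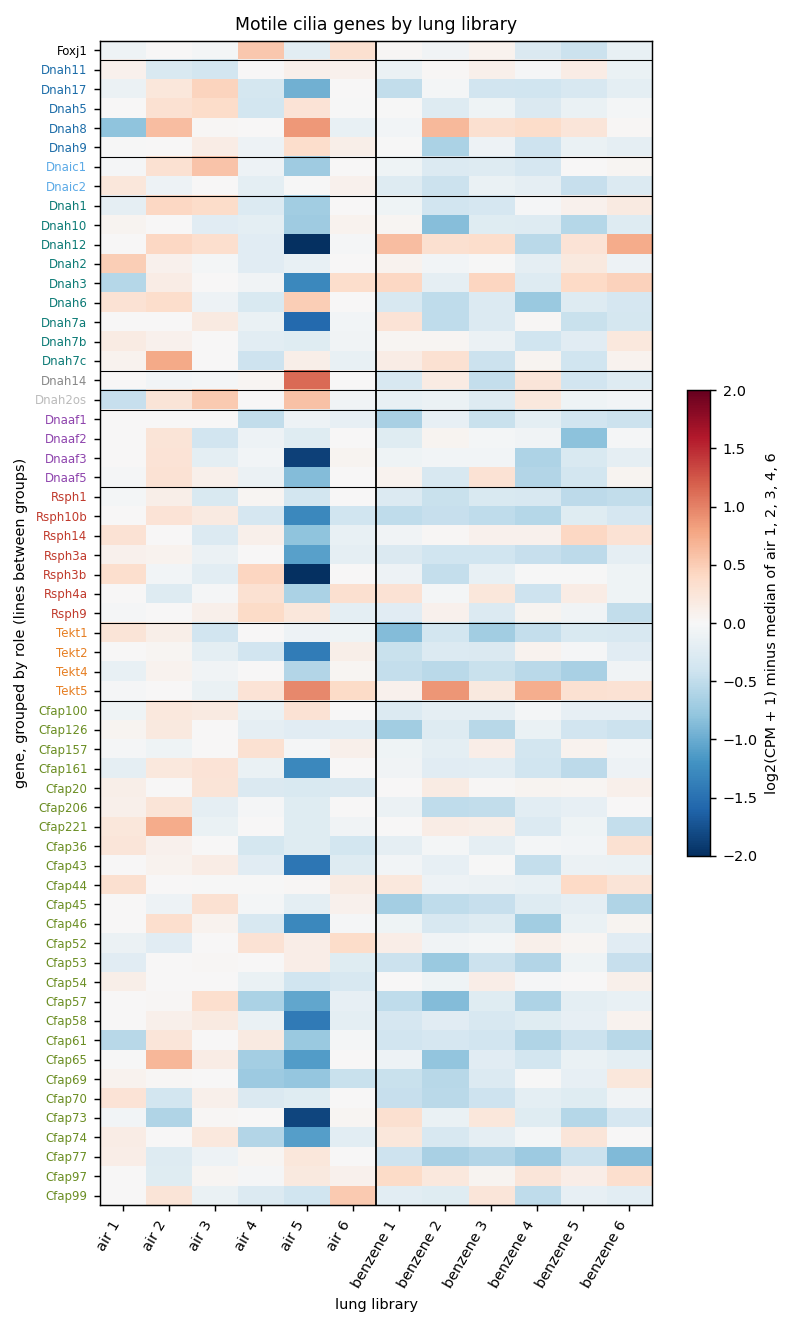
Level of the 60 motile cilia genes (rows, grouped by role and coloured as such) in the 12 lung libraries (columns). Colour gives log2(CPM + 1) minus the median of air replicates 1, 2, 3, 4 and 6, in a range of -2 to 2. Benzene columns are mostly pale blue, and the darkest cells are in air replicate 5, such as Dnah12 and Rsph3b.

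Benzene lungs had modestly less RNA of the cilia genes as a group. The genes that passed without air replicate 5 were tektin, radial spoke and Cfap genes and 1 gene each of the inner arm heavy chains and intermediate chains. With all 12 libraries no radial spoke or intermediate chain gene passed. Without air replicate 5, 10 of the 60 genes fell and 0 rose, led by Cfap77, Cfap45, Tekt1, Dnah6 and Tekt4. With all 12 libraries, 4 fell (Cfap77, Tekt1, Dnah6 and Cfap45), all among those 10, and 0 rose. No member changed by more than 2-fold in either comparison. The 60 levels summed to 1203 ± 56.1 CPM in air lungs without replicate 5 (SD, n = 5) and to 1037 ± 29.6 in benzene lungs (n = 6), or 86.2% of air. The benzene sums ran from 1001 to 1083 and the sums of those 5 air lungs from 1131 to 1277, without overlap, while air replicate 5 had the lowest sum, 982.9. With air replicate 5 the benzene mean was 88.9% of air. The gap depends on the RLE scaling: as a plain share of reads, the 60 genes took 0.114% to 0.128% in those 5 air lungs, 0.0742% in air replicate 5 and 0.0998% to 0.115% in benzene lungs, and benzene replicate 6 lay above air replicate 4.

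Each change is the benzene mean minus the air mean of log2(CPM + 1), given with its SE from limma-trend, with p-values adjusted by Benjamini-Hochberg over 15706 genes; this scale understates changes of low genes. In the comparison without air replicate 5, the 10 genes that fell are 16.7% of the members, where 7.02% of all tested genes fell and 7.63% rose. With 12 libraries, the 4 genes are 6.67% of the members, where 2.29% of all tested genes fell and 3.38% rose. The change was negative in 48 of 60 members without air replicate 5, with a median of -0.21, and in 50.3% of all genes, with a median of -0.0016. With 12 libraries it was negative in 39 of 60, with a median of -0.13, against 48.2% and 0.01 for all genes. By edgeR's quasi-likelihood test on the recovered reads, 4 members fell with 12 libraries (2.43% of all genes fell and 3.12% rose) and 11 without air replicate 5 (6.94% and 7.4%). By DESeq2 these counts were 8 (5.17% and 5.55%) and 13 (8% and 8.64%), and by both tools 0 members rose. At an unadjusted p under 0.05, 21 members were lower and 1 higher without air replicate 5, and 12 were lower and 1 higher with 12 libraries. In none of the 60 did the benzene lungs all lie above the air lungs, which held for 5.06% of all genes without air replicate 5 and 3.67% with it. They all lay below them in 3 (Cfap77, Cfap45 and Rsph3a) without air replicate 5, where this held for 4.11% of all genes, and in 1 (Cfap77) with 12 libraries, against 2.46%.

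**Figure D2:**
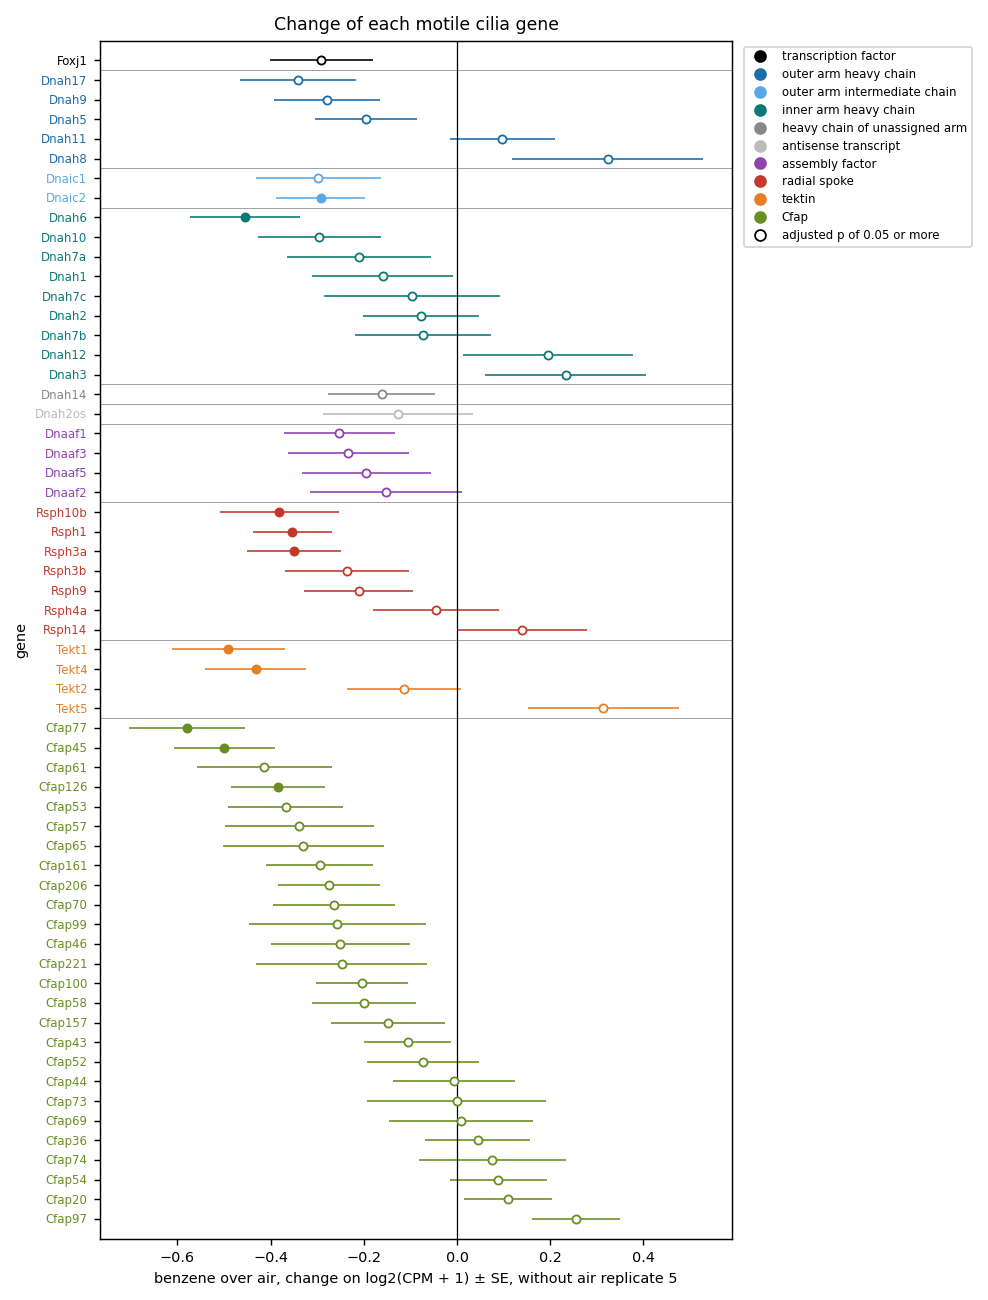
Change of each motile cilia gene, in log2(CPM + 1) with bars of 1 SE (horizontal axis), without air replicate 5, sorted within role. Filled points have a limma adjusted p under 0.05; all 10 of them lie left of 0, between -0.58 and -0.29.

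Foxj1, the regulator (ENSMUSG00000034227, chromosome 11, 116330704 to 116335399, GRCm38), did not pass the threshold. Its level was 100.3, 106, 103, 155 and 133 CPM in air replicates 1, 2, 3, 4 and 6, and 91.5 in air replicate 5. In the benzene lungs it was 107, 101, 112, 86.3, 78.7 and 95.8. The groups overlap: 3 of 6 benzene lungs lie below all 5 of those air lungs, and air replicates 4 and 6 hold the high values. Its change was -0.29 ± 0.11 without air replicate 5 (limma adjusted p = 0.0821) and -0.23 ± 0.131 with 12 libraries (limma adjusted p = 0.309). It passed in 1 of 21 settings with 12 libraries and in 1 of 20 without air replicate 5. Both passes were in the fit that weights each library by its scatter (array weights, limma adjusted p = 0.0499 and 0.0485). Here and below, the 21 settings are variants of the fit with 12 libraries. Some of them leave out libraries, and 1 of them leaves out air replicate 5.

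Of the 5 outer arm heavy chain genes none passed, in either comparison. Dnah5, the most abundant of them (ENSMUSG00000022262, chromosome 15, 28203752 to 28472052), had 44.6, 55.5, 57.8, 34.2 and 44.2 CPM in air replicates 1, 2, 3, 4 and 6, 54.3 in air replicate 5, and 36.3 to 44.2 in benzene lungs with a median of 41.2. The air lungs spread over a wider range than the benzene lungs and enclose them. Its change was -0.20 ± 0.11 (limma adjusted p = 0.248) without air replicate 5 and -0.23 ± 0.121 (limma adjusted p = 0.274) with 12 libraries. The changes of the 5 genes ran from -0.34 to 0.32 without air replicate 5. Both sperm tail genes are at the ends of this range, Dnah17 at the lower (limma adjusted p = 0.0704) and Dnah8 at the upper (limma adjusted p = 0.309). With 12 libraries the range was -0.33 to 0.17.

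The outer arm intermediate chain genes Dnaic1 and Dnaic2 encode the proteins that seat the heavy chains at the base of the arm. Dnaic2 (ENSMUSG00000034706, chromosome 11, 114727408 to 114757889), whose promoter is shown above, had 34.2, 27.2, 29.2, 25.5 and 31.0 CPM in air replicates 1, 2, 3, 4 and 6 and 29.1 in air replicate 5. In the benzene lungs it ran from 20.9 to 26.6 with a median of 24.1, and 4 of 6 lay below every air lung. It fell by 0.29 ± 0.0956 without air replicate 5 (limma adjusted p = 0.0445). With 12 libraries its change was -0.29 ± 0.096 (limma adjusted p = 0.0927). Without air replicate 5 it passed in 10 of 20 settings. Dnaic1 had a change of about the same size, -0.30 ± 0.134, with a wider error (limma adjusted p = 0.146), and of -0.15 with 12 libraries (limma adjusted p = 0.624).

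Of 9 inner arm heavy chain genes 1 fell. Dnah6 (ENSMUSG00000052861, chromosome 6, 73017606 to 73221651) had 43.9, 46.4, 33.6, 28.9 and 35.9 CPM in air replicates 1, 2, 3, 4 and 6. Air replicate 5 had the highest value, 50.8, and the benzene lungs had 28.6, 24.9, 29.4, 21.1, 29.9 and 28.3. The benzene lungs were close together, and 4 of 6 lay below every air lung, air replicate 4 being the lowest air value. It fell by 0.46 ± 0.118 without air replicate 5 (limma adjusted p = 0.0129) and by 0.53 ± 0.14 with it (limma adjusted p = 0.04). Dnah6 passed in 19 of 20 settings without air replicate 5, but in only 10 of 21 with 12 libraries. The changes of the 9 genes ran from -0.46 to 0.23 without air replicate 5. Dnah3 and Dnah12, the only inner arm genes with a positive change there, had 0.23 ± 0.173 and 0.20 ± 0.182 (limma adjusted p = 0.396 and 0.51). With 12 libraries their changes were 0.44 and 0.66 (limma adjusted p = 0.314 and 0.383). The genes Dnah7a, Dnah7b and Dnah7c are near-identical copies, between which the authors' counting could split reads, so their separate values are uncertain.

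The 4 assembly factor genes all had a negative change without air replicate 5, from -0.25 to -0.15, and none passed; with 12 libraries the range was -0.26 to 0.08 and none passed. Dnaaf5 (ENSMUSG00000025857, chromosome 5, 139150223 to 139186510), the most abundant of them over the 12 libraries, ran from 17 to 22.8 CPM in air replicates 1, 2, 3, 4 and 6, with a median of 18.5. Air replicate 5 had 9.74, below every other lung. In benzene lungs Dnaaf5 ran from 11.9 to 23.0 with a median of 16.9, enclosing those 5 air values. Its change was -0.19 ± 0.139 without air replicate 5 (limma adjusted p = 0.377) and -0.04 ± 0.195 with it (limma adjusted p = 0.91).

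Of 7 radial spoke genes 3 fell without air replicate 5 and none passed with 12 libraries. Rsph1 encodes a spoke head protein (ENSMUSG00000024033, chromosome 17, 31255019 to 31277383). It had 53.0, 59.4, 43.8, 56.1 and 54.6 CPM in air replicates 1, 2, 3, 4 and 6, 42.3 in air replicate 5, and 45.1, 39.8, 44.0, 43.3, 37.8 and 38.6 in benzene lungs. Only air replicates 3 and 5 reach into the benzene range. It fell by 0.35 ± 0.0848 (limma adjusted p = 0.00753), and with 12 libraries its change was -0.30 ± 0.0982 (limma adjusted p = 0.0914).

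Rsph3a, a gene of the spoke stalk (ENSMUSG00000073471, chromosome 17, 7945614 to 7979824), had 18.6, 18.5, 16.2, 17.6 and 15.4 CPM in those 5 air lungs, and 11.9 to 15.3 in benzene lungs with a median of 13.1. The groups do not overlap, but air replicate 5 had 7.80, the lowest of all. It fell by 0.35 ± 0.101 without air replicate 5 (limma adjusted p = 0.0235), and its change was -0.17 ± 0.177 with it (limma adjusted p = 0.568). Its near-identical copy Rsph3b makes the split between the pair uncertain. Rsph10b, the third of the spoke genes that fell (ENSMUSG00000075569, chromosome 5, 143933035 to 143985719), was at 12.6 to 20.6 CPM in those air lungs, 6.30 in air replicate 5 and 11.04 to 14.1 in benzene lungs. Its change of -0.38 ± 0.128 is at the threshold (limma adjusted p = 0.0498), and it passed in 6 of 20 settings. With 12 libraries it was -0.18 ± 0.217 (limma adjusted p = 0.642).

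**Figure D3:**
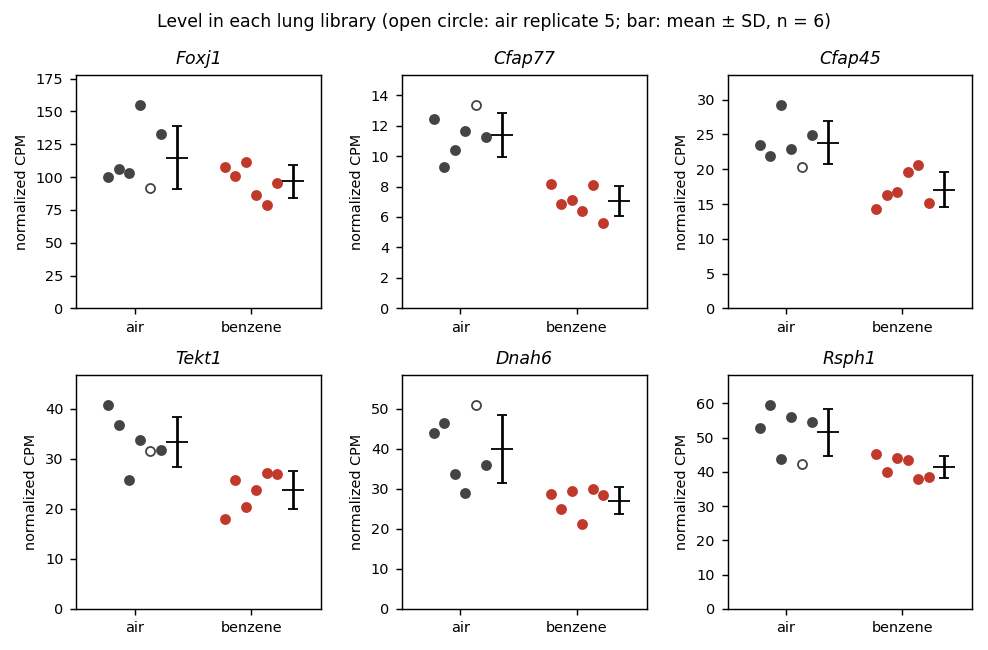
Level in normalized CPM (vertical axes, from 0) of Foxj1, Cfap77, Cfap45, Tekt1, Dnah6 and Rsph1 in 6 air (grey) and 6 benzene (red) lungs; the open circle is air replicate 5 and the bar is the mean ± SD of each group (n = 6). Cfap77 is separated fully between the groups, and Foxj1 overlaps.

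The tektins had the largest relative decrease of the groups with more than 1 gene. Their 4 levels summed to 71.9 ± 6.69 CPM in air without replicate 5 and 57.1 ± 6.29 in benzene, or 79.4%. Tekt1 (ENSMUSG00000020799, chromosome 11, 72344722 to 72362442) had 40.7, 36.6, 25.7, 33.7 and 31.7 CPM in air replicates 1, 2, 3, 4 and 6, 31.5 in air replicate 5, and 17.97, 25.8, 20.4, 23.8, 27.2 and 26.9 in benzene lungs. Air replicate 3 is the 1 air lung within the benzene range. Tekt1 fell by 0.49 ± 0.121 without air replicate 5 (limma adjusted p = 0.00954) and by 0.48 ± 0.129 with it (limma adjusted p = 0.0447). It passed in all 20 settings without air replicate 5, but in only 9 of 21 with 12 libraries.

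Tekt4 (ENSMUSG00000024175, chromosome 17, 25454615 to 25476602) had 17.8, 20.9, 18.9, 19.9 and 20.6 CPM in the same 5 air lungs and 12.9 in air replicate 5. The benzene lungs had 14.1, 13.3, 14.3, 13.4, 12.3 and 18.9, so that 5 of them lay below those air lungs and benzene replicate 6 lay among them. It fell by 0.43 ± 0.108 without air replicate 5 (limma adjusted p = 0.0104), and its change was -0.34 ± 0.134 with it (limma adjusted p = 0.161). Tekt2 had a change of -0.11, and Tekt5, which is known from sperm flagella, a change of 0.31 ± 0.162 (limma adjusted p = 0.208) in the opposite direction. With 12 libraries these changes were 0.11 and 0.17 (limma adjusted p = 0.792 and 0.63).

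Of 26 Cfap genes 3 fell without air replicate 5 and 2 of these also with 12 libraries. Cfap77, a protein of the doublet microtubules (ENSMUSG00000079502, chromosome 2, 28926949 to 29055066), had the largest decrease of all 60 genes in both comparisons. With 12 libraries the change of Dnah12 was larger in size, at 0.66, and did not pass. The level of Cfap77 was 12.4, 9.27, 10.4, 11.6 and 11.2 CPM in air replicates 1, 2, 3, 4 and 6 and 13.3 in air replicate 5. In benzene lungs it was 8.17, 6.84, 7.11, 6.38, 8.07 and 5.63. All 6 benzene lungs lay below all 6 air lungs. It fell by 0.58 ± 0.124 without air replicate 5 (limma adjusted p = 0.00314) and by 0.62 ± 0.123 with it (limma adjusted p = 0.00694), and it passed in all 21 and all 20 settings tried.

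Cfap45, which lies inside the doublets (ENSMUSG00000026546, chromosome 1, 172520801 to 172545870), had 23.5, 21.9, 29.2, 23.0 and 24.9 CPM in air replicates 1, 2, 3, 4 and 6. Air replicate 5 had 20.4, and the benzene lungs had 14.3, 16.3, 16.7, 19.5, 20.5 and 15.1. Benzene replicate 5 just exceeds air replicate 5 and the groups are otherwise apart. It fell by 0.50 ± 0.109 without air replicate 5 (limma adjusted p = 0.00356) and by 0.46 ± 0.115 with it (limma adjusted p = 0.0313). Cfap45 passed in all 20 settings without air replicate 5, but in only 12 of 21 with 12 libraries.

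Cfap126, also known as Flattop, which in mice acts in the positioning of basal bodies (ENSMUSG00000026649, chromosome 1, 171113918 to 171126967), had 43.5 to 58.0 CPM in the 5 air lungs, 42.9 in air replicate 5, and 30.8 to 45.7 with a median of 37.8 in benzene lungs. Benzene replicate 4 alone reached the air range. It fell by 0.38 ± 0.1 without air replicate 5 (limma adjusted p = 0.0137), and its change was -0.35 ± 0.11 with it (limma adjusted p = 0.0786).

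Cfap43, a gene of the tether that holds an inner arm dynein (ENSMUSG00000044948, chromosome 19, 47736857 to 47919287), had the highest mean level of the Cfap genes. It was at 60.2 to 79.6 CPM in the 5 air lungs and 51.2 to 71.7 in benzene lungs, and at 25.8 in air replicate 5. Its change was -0.11 ± 0.0932 without that library and 0.13 ± 0.22 with it (limma adjusted p = 0.484 and 0.748), so its sign rests on 1 library. The highest change among the Cfap genes was that of Cfap97, 0.26 ± 0.0943 without air replicate 5 (limma adjusted p = 0.0761), where 5 of 6 benzene lungs lay above every air lung; it is named after its value was seen. With 12 libraries its change was 0.22 (limma adjusted p = 0.203). The C1d projection of the central pair contains the products of Cfap46, Cfap54, Cfap74 and Cfap221. Their changes of -0.25, 0.09, 0.08 and -0.25 point in both directions and none passed (limma adjusted p = 0.279, 0.613, 0.79 and 0.397). With 12 libraries they were -0.03, 0.14, 0.24 and -0.18, and none passed (limma adjusted p = 0.943, 0.443, 0.503 and 0.571).

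The summed level was lower in benzene for each role group. Leaving out air replicate 5, the benzene mean was 79.4% of the air mean for tektins, 80.3% for intermediate chains, 82.5% for radial spokes, 85.9% for assembly factors, 86.9% for outer arm and 87.4% for inner arm heavy chains, and 89.3% for Cfap genes. With 12 libraries these shares were 81.9%, 82.3%, 87.4%, 91.2%, 86.5%, 90.1% and 93.5%. Only the radial spoke sums were apart, 116 to 126 CPM in benzene and 135 to 160 in those air lungs, among the groups with more than 2 genes, and air replicate 5 lay below both, at 98.0. Sums of the outer arm heavy chains ran from 90.8 to 102 in benzene and from 92.4 to 132 in air.

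**Figure D4:**
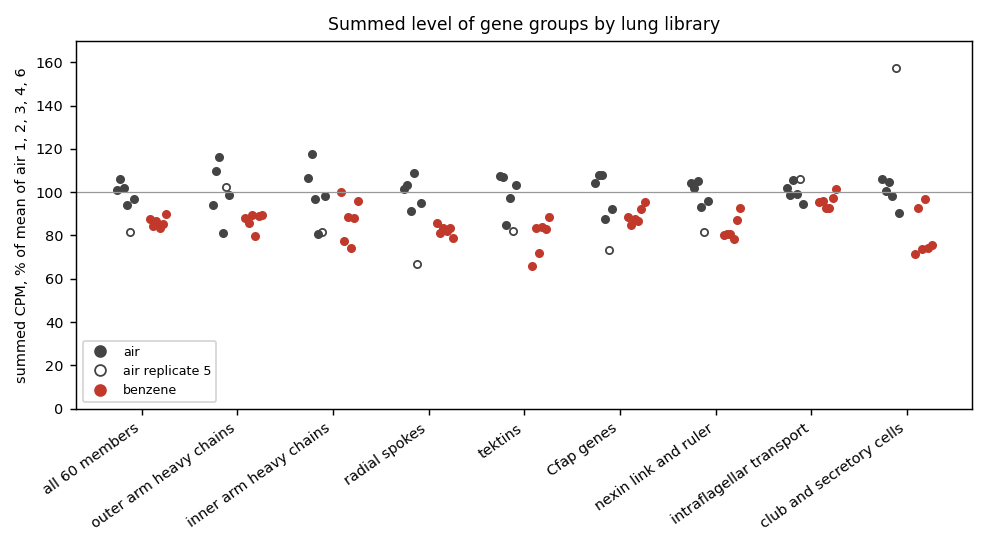
Summed CPM of each gene group in each lung, as a percentage of the mean of air replicates 1, 2, 3, 4 and 6 (vertical axis, from 0). Grey points are air, the open circle is air replicate 5 and red points are benzene; for all 60 members every red point is below every filled grey point, and air replicate 5 is below them all.

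Air replicate 5 was low in the cilia genes more often than in other genes. It was the lowest of the 6 air lungs in 36 of 60 members (60%) and the highest in 11 (18.3%), where over all tested genes these shares were 40.5% and 37.4%. The genes named next were singled out after their values were seen. In air replicate 5, Dnah12 had 4 reads (76 to 123 in the other air lungs), Rsph3b 3 reads (98 to 190), Dnah7a 8 (45 to 65), Dnaaf3 14 (85 to 119) and Cfap73 none (12 to 31). Dnah14 went the other way, at 80.4 CPM against 34.6 to 37.0 in the other air lungs. Which parts of these genes the missing reads cover was not tested. With air replicate 5 in the comparison, the sign of the change turned in 9 of 60 members, all of them without a pass in either comparison.

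**Figure D5:**
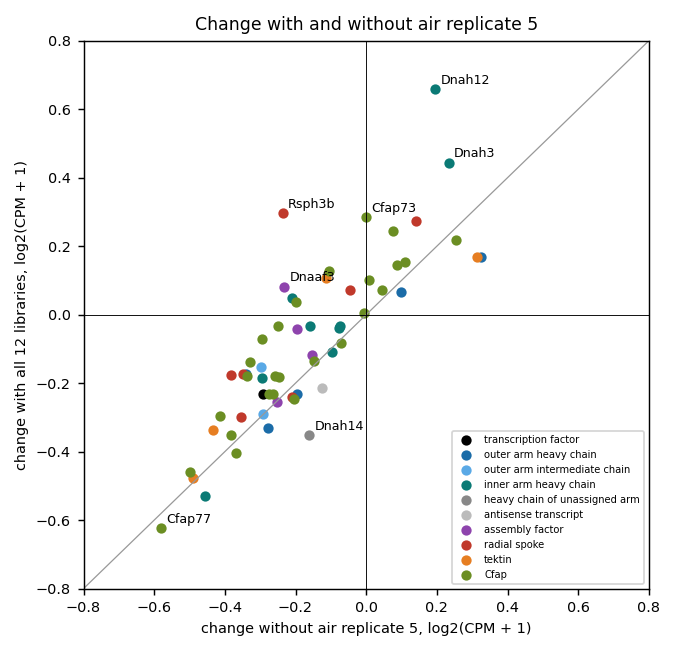
Change of each of the 60 genes, benzene over air on log2(CPM + 1), without air replicate 5 (horizontal) and with all 12 libraries (vertical), coloured by role; the diagonal marks equal values. Most genes lie above the diagonal, Dnah12 and Rsph3b farthest, while Cfap77 lies close to it.

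Benzene replicates 2 and 4 were both below the other 4 benzene lungs in 13 of 60 members (21.7%, against 19.97% of all genes) and both above them in 6 (10%, against 19.4%). Dnah14 was among the latter, at 40.4 and 43.0 CPM against 25.7 to 30.0. Without these libraries 2 of 60 genes fell with the 6 air lungs (Cfap77 and Cfap126), and 11 fell without air replicate 5, where 1 gene, Dnah3, rose. Those 11 include Dnaaf1, Dnah14 and Dnah17, which did not pass by limma with these libraries kept. They lack Dnaic2 and Rsph10b, which did. The share of all genes that passed without these libraries was not counted.

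Of other genes of the motile cilium, taken from lists by role, some fell and most did not pass. With air replicate 5 left out, 19 of 84 listed genes fell and 0 rose, where 7.02% of all genes fell and 7.63% rose. With 12 libraries 2 fell (Dynlrb2 and 1110017D15Rik), a share close to the 2.29% of all genes that fell. Without air replicate 5 the median change of the 84 was -0.14, with 60 negative and 24 positive, and with 12 libraries it was -0.09, with 59 negative. The difference between roles was not tested. Of 9 genes of the axonemal ruler and the nexin link, the regulatory complex that ties doublets together, 5 fell without air replicate 5 and 0 with 12 libraries (3 lower at an unadjusted p under 0.05 by limma): Ccdc65, Drc7, Drc1, Gas8 and Drc3. Ccdc65 went from 15.4 ± 2.71 CPM in air without replicate 5 to 9.79 ± 1.78 in benzene, a change of -0.60 (limma adjusted p = 0.00411) that was -0.46 with 12 libraries (limma adjusted p = 0.151), and the ruler genes Ccdc39 and Ccdc40 had changes of 0.05 and -0.03. Again without air replicate 5, of 8 dynein light and other chain genes 3 fell (Dynlrb2, Wdr63 and Nme9), and of 7 central pair genes 2 (Spag17 and Spef1). Of 5 genes for docking of the outer arm 1 fell, Ccdc151.

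None of 5 transcription genes of multiciliated cells passed in either comparison. Rfx2 and Rfx3, the X-box binding factors, were at 12.7 ± 1.26 and 12.1 ± 2.6 CPM in air without replicate 5. They were at 11.9 ± 2.37 and 12.5 ± 2.56 in all 6 air lungs and at 13.3 ± 2.05 and 12.2 ± 1.59 in benzene. Their changes were 0.05 and 0.03 without air replicate 5, and 0.16 and -0.02 with 12 libraries. None of 5 basal body amplification genes and none of 4 other assembly genes passed either. Of 23 genes of intraflagellar transport, which builds both motile and primary cilia, 1 fell without air replicate 5 (Ift43) and 0 with 12 libraries, with a median change of -0.04 and a summed level at 96.0% of air without air replicate 5 (-0.04 and 95.1% with it).

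Of 18 further ciliated cell markers 7 fell without air replicate 5 and 1 with 12 libraries. The 7 include Tppp3, a tubulin binding protein, from 653 ± 51.8 to 532 ± 66.6 CPM (change -0.30, limma adjusted p = 0.0206, and 0.0632 with 12 libraries), and the cadherin gene Cdhr3 from 56.8 ± 3.23 to 45.4 ± 1.76 (change -0.32, limma adjusted p = 0.0035, and 0.052 with 12 libraries). The marker sum was 96.4% of air without replicate 5 (98.7% with 12 libraries). Its most abundant gene, Sec14l3, was at 702 ± 102 CPM in air without replicate 5 and 865 ± 185 in benzene (change 0.28, limma adjusted p = 0.157). With 12 libraries its change was 0.66 (limma adjusted p = 0.285). In air replicate 5 Sec14l3 was at 145 CPM. Foxj1, which defines these cells, was at 78.7 CPM or more in every lung.

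Markers of other cells moved in the same comparison, and their part in the result for the cilia genes was not tested. Of 12 club and secretory cell genes 9 fell without air replicate 5 and 6 with 12 libraries. Their summed level was 69523 to 81313 CPM in those air lungs, 120802 in air replicate 5 and 54770 to 74440 in benzene lungs, the highest benzene values being those of replicates 2 and 4. Most of this sum was Scgb1a1, at a mean of 59737.5 CPM in those air lungs and 49296.9 in benzene lungs. Scgb1a1 did not pass (limma adjusted p = 0.334, and 0.431 with 12 libraries). The median change of these 12 genes was -0.77, and -0.75 with 12 libraries. Of 6 basal cell genes 5 were tested and rose in both comparisons, while the untested Krt17 was at 1.98 CPM in air without replicate 5 and 0.49 in benzene. The 6 levels summed to 55.8 to 74.4 CPM in air and 185 to 202 in benzene. All 8 squamous epithelium genes rose in both comparisons, with sums of 289 to 376 in air and 3960 to 4401 in benzene. None of 6 alveolar type 2 genes passed, and 1 of 6 alveolar type 1 genes rose (Akap5), in both comparisons alike. Of 7 skeletal muscle genes 5 fell without air replicate 5 and 4 with it, with sums of 1592 to 1734 CPM in air without replicate 5, 3027 in air replicate 5 and 1034 to 1281 in benzene. Of 6 atrial heart muscle genes all 6 fell without air replicate 5 and 3 with 12 libraries (Sln, Actc1 and Myh6 did not pass there), with sums of 1488 to 2001 in air without replicate 5, 1897 in air replicate 5 and 888 to 1044 in benzene. Of the cartilage list only Comp and of the thyroid list only Tg are listed in the lung table, at sums of at most 4.80 and 1.97 CPM, and neither passed. The 5 male germ cell genes (Prm1, Prm2, Tnp1, Acrv1 and Odf1) are not listed there.

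Some of the 60 genes are also read in liver, a tissue without airways. The liver table lists 12 of them: Cfap126, Cfap20, Cfap36, Cfap97, Dnaaf1, Dnaaf2, Dnaaf5, Dnah14, Dnah17, Rsph3a, Rsph3b and Rsph9. Cfap20 was the highest there, at 25.5 ± 2.1 CPM in air livers (n = 5), and Foxj1 is not among them. In lung without air replicate 5, 9 of these 12 had a negative change, with a median of -0.20, and 2 fell. Of the 48 genes not listed in liver, 39 had a negative change, with a median of -0.21, and 8 fell. With 12 libraries, 8 of the 12 were negative and 0 fell by limma, against 31 of the 48 and 4. The level of each member was scaled separately within each tissue, so lung and liver values are set side by side without a test. When the near-identical copies Rsph3a, Rsph3b, Dnah7a, Dnah7b and Dnah7c and the antisense transcript Dnah2os were left out, 42 of 54 changes were negative and 9 genes fell without air replicate 5, and 35 were negative and 4 fell with it. Dnah2os overlaps Dnah2, and whether the counting used strand is not given in the sources used here, so reads of the pair cannot be told apart.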

How the data were processed

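Poly-A RNA of lung (6 air, 6 benzene) was sequenced as read pairs of 150 bases. The submitters' processing notes name fastp 0.20.0, STAR, edgeR 3.10 and GRCm38; the removal of low genes and the counting program, with its use of strand, were not given in the sources used here. Headed CPM by the authors, the deposited values are normalized signal: taken back to reads with 1 factor per library, equal to edgeR's RLE factor, 100% of them came out whole (tolerance 0.01 reads). The deposited log2 change and the deposited p-value of the authors were not used, nor were their group means.

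The cilia genes, gene lists, tests and alternatives were chosen with earlier results of these data known. Lung genes that reached 1 CPM in 6 or more libraries were taken as log2(value + 1), and limma-trend was run (R 4.3.3, limma 3.58.1), with p adjusted by Benjamini-Hochberg, threshold 0.05. The test for normalized values was used because the unit was not raw counts. On the recovered reads edgeR 4.0.16, run as an alternative, called 382 genes lower and 490 higher with 12 libraries, and DESeq2 1.42.0 called 805 and 864. Other alternatives were TMM scaling, other filters, a pseudocount of 0.1, array weights, a replicate block and leaving out each library; leaving out benzene replicates 2 and 4 was added after the data were seen. The limma step was tested on simulated data without an outlying library. It recovered 95% of 2-fold changes in both comparisons. Of the smaller changes simulated it recovered 69% with 12 libraries and 61% without air replicate 5. Even these were larger than most changes of the members, and recovery of changes as small as those was not simulated. Changes of the size seen here can therefore be missed.

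Genes named with full values are Foxj1, members past the threshold with 12 libraries, the 12 largest changes past it without air replicate 5, and the member of highest level in each role group. Exon lengths came from GENCODE M21 and promoters from RefSeq. Members outside this rule are named where they end a range or share a role, which was chosen after their values were seen. No molecular identifiers are recorded, so reads are not independent molecules. Python 3.11.15 with pandas 2.3.3 wrote the tables.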

Additional observations from a re-analysis of the deposited data

Results flagged for a closer look

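In 11 of 120 sets of 6 libraries (60 genes in 2 groups) 1 library lay so far from the others that it passed Dixon's test for an outlying value; chance alone gives about 1 in 20 sets. Of these, 8 were in air lungs, 6 of them air replicate 5, and 3 were in benzene lungs. In air replicate 5 the level was outlying for the tether gene Cfap43 (25.8 CPM, 60.2 to 79.6 in the other air lungs), for Cfap58 (4.65 CPM), for the assembly factor gene Dnaaf3 (2.10 CPM), for the inner arm gene Dnah7a (1.20 CPM) and for the spoke gene Rsph3a (7.80 CPM), all low. It was high for Dnah14 (80.4 CPM). Dnah2 was high in air replicate 1 (18.02 CPM) and Dnah7c in air replicate 2 (11.5 CPM). Among benzene lungs, Cfap36 (57.3 CPM) and Tekt4 (18.9 CPM) were high in replicate 6, and Rsph3b was low in replicate 2 (7.90 CPM). The sets overlap in their libraries, and Rsph3a, Rsph3b, Dnah7a and Dnah7c have near-identical copies.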

How the results depend on the processing

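With 12 libraries, 4 members fell; DESeq2 called 8, array weights 10, the replicate block 1, and leaving out benzene replicates 2 and 4 gave 2. Leaving out 1 library gave 1 to 10: 10 without air replicate 5, 2 without air replicate 2, and 1 (Cfap77) without any one of air replicates 1 and 6 and benzene replicates 1, 2, 3 and 6. Without air replicate 5, 10 fell; the replicate block gave 4, and leaving out a further library gave 5 (without air replicate 2) to 15 (without air replicate 4). There 1 member, Dnah3, rose when benzene replicates 2 and 4 were also left out, and otherwise 0 rose under any setting run. Shares of all genes that passed were counted only for the main limma fits, edgeR and DESeq2. The member counts under other settings therefore have no such share beside them. Without air replicate 5, 45 to 49 of 60 changes were negative over 20 settings. The summed level stayed at 85.9% of air with TMM scaling. The sign of Cfap43 (0.13 with 12 libraries) turned to -0.0392 with array weights and was -0.11 to 0.21 when 1 library was left out, negative only without air replicate 5. That of Dnaaf5 (-0.04) was -0.19 to 0.0473 when 1 library was left out, positive without air replicate 2 (0.03) or benzene replicate 4 (0.0473) or 5 (0.0035), and 0.11 without benzene replicates 2 and 4. The cause of these turns was not tested, and neither gene passed. Same-numbered libraries correlated at -0.364 to 0.0979 and no air library correlated best with its own number. These correlations gave no sign that the numbers pair the samples, but they cannot exclude it, and the labels do not say. Depth limits the low members: Cfap73 rested on 12 to 34 reads in the lungs other than air replicate 5.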
